A study of Mus musculus with 4 samples.

Results

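A set of 10 genes of the Notch pathway was followed in RNA from mouse embryoid bodies, free-floating aggregates of differentiating embryonic stem cells. They were Dll1, Dll3 and Jag1 (ligands), Notch1 (receptor), Lfng (a receptor-modifying enzyme) and Hes1, Hes5, Hey1, Heyl and Nrarp (targets). All 10 were taken by symbol from 24015 genes in the count files, and all 10 passed the filter on low counts, as did 14259 genes in all. The groups were Trim33-deficient bodies (2 libraries) and Control bodies (2 libraries), both harvested on day 7 from outbred cells. Per the labels, the stem cell lines came from embryos homozygous for a Trim33-flox allele that carried the UbcCreERT2 transgene, a tamoxifen-dependent Cre recombinase under a broadly active ubiquitin promoter. 4OH-Tamoxifen on day 4 induced the deficiency. The Control genotype is labelled wild type, while the allele and transgene of Control bodies, and whether they received the drug, are left unstated there.

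Notch signalling passes between touching cells. A Delta or Jagged ligand on one cell pulls on a Notch receptor on its neighbour, proteases release the receptor's intracellular domain, and this joins the DNA-binding protein RBPJ in the nucleus to switch on genes of the HES and HEY repressor families. HES proteins in turn hold down proneural genes, which keeps neural progenitors from becoming neurons, and the same pathway times somite formation in presomitic mesoderm and shapes developing vessels. Trim33 encodes a chromatin-binding ubiquitin ligase that partners with SMAD proteins of the TGF-beta pathway.

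The libraries held 10422738 to 13808837 counts in genes. Trim33 itself had 608 and 495 counts in Trim33-deficient bodies, against 1203 and 1117 in Control bodies, a log2 fold change of −1.23 (SE 0.13). Trim33 missed the threshold of the edgeR quasi-likelihood test (adjusted p = 0.219, over all genes tested) and passed that of DESeq2 (adjusted p = 1.8e-06). Control replicate 1 stood apart. Its log2 CPM (gene counts scaled to a common library total, TMM-normalised) correlated with those of the remaining libraries at 0.932 to 0.952, and theirs with each other at 0.967 to 0.978, as a description across genes. The labels call the replicates independent pairs without naming separate cell lines or cultures, so whether the p-values cover the spread between lines or only between cultures is not known.

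The promoters of Hes5, Lfng and Nrarp are shown because these were the members whose libraries lay furthest apart between the groups. Each run is the 250 bases before an annotated start (RefSeq, GRCm38.p6, which is not the mm9 build of the counts), written 5′ to 3′ on the gene's strand. Capitals mark TGGGAA, the core letters that RBPJ binds, or its reverse complement TTCCCA.
Hes5 (chr4:154960673-154960922, + strand): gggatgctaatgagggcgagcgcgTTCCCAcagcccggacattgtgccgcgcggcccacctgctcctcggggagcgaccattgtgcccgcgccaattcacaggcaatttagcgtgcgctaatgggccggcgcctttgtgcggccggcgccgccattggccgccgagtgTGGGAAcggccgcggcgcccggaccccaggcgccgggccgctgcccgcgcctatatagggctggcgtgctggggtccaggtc
Lfng (chr5:140607091-140607340, + strand): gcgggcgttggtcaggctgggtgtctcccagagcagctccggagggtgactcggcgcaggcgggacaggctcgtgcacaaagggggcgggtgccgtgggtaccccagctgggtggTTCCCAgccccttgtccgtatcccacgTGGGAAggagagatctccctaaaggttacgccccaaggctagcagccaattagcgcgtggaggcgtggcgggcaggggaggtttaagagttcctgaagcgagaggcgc
Nrarp (chr2:25180508-25180757, + strand): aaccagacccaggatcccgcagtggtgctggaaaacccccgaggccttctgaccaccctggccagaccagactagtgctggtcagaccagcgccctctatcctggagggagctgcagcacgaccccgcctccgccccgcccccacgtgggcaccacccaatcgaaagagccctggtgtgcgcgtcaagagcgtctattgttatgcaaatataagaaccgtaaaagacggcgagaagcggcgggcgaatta
Hes5 held the core letters 2 times, starting 226 and 82 bases before its start, and both matches were also part of the longer GTGGGAA. Lfng held them 2 times as well, 135 and 108 bases before its start. The nearer match was also part of GTGGGAA and overlapped an E-box, CACGTG. Nrarp held no TGGGAA in this window, and it held 1 E-box and 2 matches to the HES-bound N-box, CACNAG. Lfng held 1 N-box match. Windows were found for 7 of the 10 genes, those of Hes1, Hey1 and Heyl being the exceptions. The 7 genes had 8 windows. Matches of the 7 are counted by gene and the shares of all windows by window, so the units differ. On both strands, TGGGAA occurred for 2 of the 7 genes, Hes5 and Lfng, and in 21.6% of all 32807 windows of this length. The longer GTGGGAA occurred for the same 2 genes and in 5.42% of all windows. CACGTG occurred for 2 of the 7 and in 6.02% of all windows, and CACNAG for 3 of the 7 and in 36.7%. A match is only a string of letters in the window.

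Between Trim33-deficient and Control bodies, all 10 Notch genes had a log2 fold change below 0, as did 50.2% of genes tested, with 49.8% above 0. The edgeR quasi-likelihood test called 0 of the 10 lower or higher at an adjusted p of 0.05. It called 0.014% of all genes tested lower and 0% higher. DESeq2 also called 0 of the 10, and 0.807% of all genes lower and 0.182% higher. By the edgeR quasi-likelihood test the adjusted p of the 10 genes ran from 0.577 to 0.932. Before adjustment, 2 members had p under 0.05, Lfng and Nrarp, both lower, as had 4.78% of all genes in that direction and 3.06% in the other. The median log2 fold change of the 10 was −0.72, and that of all genes tested was −0.0014. Without Control replicate 1 the median of the 10 was −0.22, with 8 of the 10 below 0, and without Trim33-deficient replicate 2 it was −0.42, with 7 of the 10 below 0. Without Trim33-deficient replicate 1 it was −1.24, with all 10 below 0, and without Control replicate 2 −0.94, with 9 of the 10 below 0. For 5 of the 10, Notch1, Lfng, Hes5, Heyl and Nrarp, the higher Trim33-deficient library was below the lower Control library, as for 21.4% of genes tested. The gaps of Notch1 and Heyl were narrow, as given below. Replicate numbers were taken as pairs, and within both pairs 7 of the 10 were lower in Trim33-deficient bodies, against 29.8% of genes tested. For Jag1, Hes1 and Hey1 the pairs disagreed in direction. In bulk RNA, fewer cells of a type and less RNA per cell cannot be told apart.

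**Figure D1:**
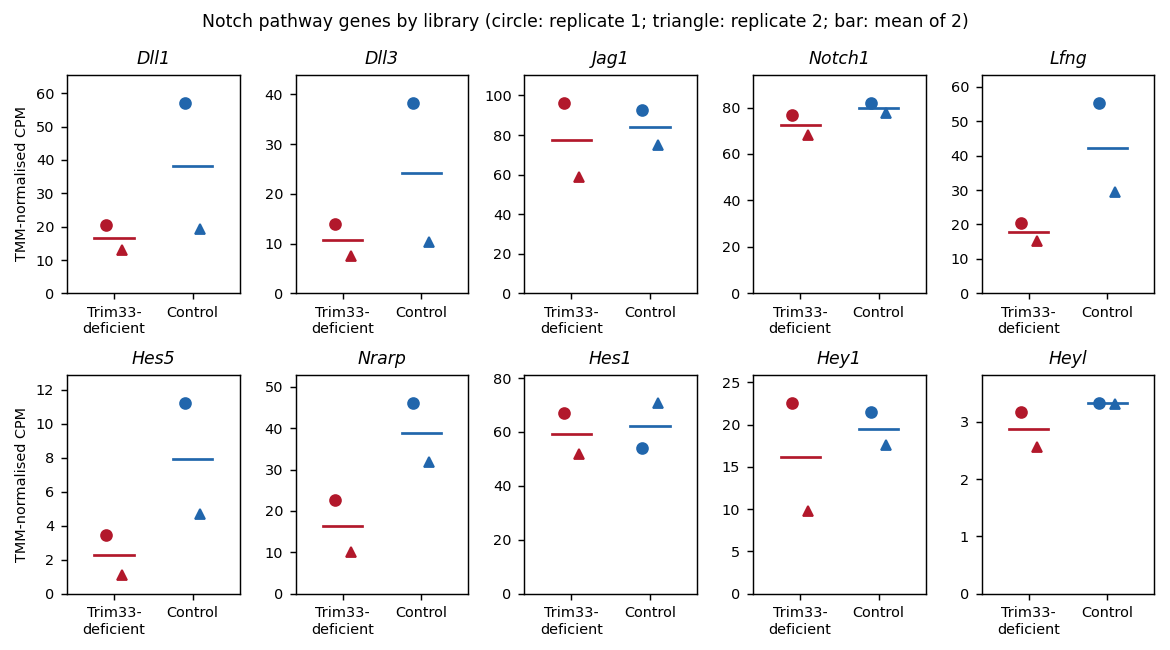
Normalised level (CPM, linear axes from 0) of the 10 Notch genes in each library, with Trim33-deficient libraries on the left and Control on the right; circles are replicate 1, triangles replicate 2 and bars the mean of 2. For Lfng, Hes5, Nrarp, Notch1 and Heyl both Trim33-deficient points lie below both Control points, and for Dll1 and Dll3 only Control replicate 1 lies far above the other libraries.

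Among the ligands, Dll1 encodes a Delta-like ligand that activates Notch in neural progenitors and presomitic mesoderm. It stood at 20.4 and 12.9 CPM in Trim33-deficient replicates 1 and 2, against 57.0 and 19.4 CPM in Control replicates 1 and 2. Control replicate 1 was high and the groups overlapped, since Trim33-deficient replicate 1 was above Control replicate 2. The log2 fold change was −1.20 (SE 0.57, edgeR quasi-likelihood adjusted p = 0.664), and without Control replicate 1 it was −0.23. Within the pairs it was −1.47 for replicate 1 and −0.59 for replicate 2.

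Dll3 encodes a divergent Delta-like protein that stays largely inside the cell and dampens signalling, and it is needed for somite patterning. It had 13.9 and 7.60 CPM in Trim33-deficient libraries, against 38.2 and 10.3 CPM in Control libraries, so the groups overlapped in the way those of Dll1 did. Its log2 fold change of −1.17 (SE 0.70, edgeR quasi-likelihood adjusted p = 0.697) turned to 0.069 without Control replicate 1. The 2 Control libraries differed 2.93-fold for Dll1 and 3.73-fold for Dll3, more than the group means did.

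Jag1 encodes a ligand of the Jagged class, used in vessels, smooth muscle and the inner ear among others. It had 96.1 and 58.6 CPM in Trim33-deficient libraries and 92.8 and 74.8 CPM in Control libraries, and the Control values lay between the Trim33-deficient values. Its log2 fold change was −0.12 (SE 0.27), with 0.051 in the replicate 1 pair and −0.35 in the replicate 2 pair. The direction turned without Control replicate 1, to 0.045, and without Trim33-deficient replicate 2, to 0.20.

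Notch1, the receptor in this list, had 76.6 and 68.2 CPM in Trim33-deficient bodies, against 81.9 and 77.7 CPM in Control bodies. The groups did not overlap, but the gap was small, with 90.7% of the Control mean in Trim33-deficient bodies and a log2 fold change of −0.14 (SE 0.12, edgeR quasi-likelihood adjusted p = 0.768). It was the member with the smallest standard error, and the fits without each library in turn gave −0.22 to −0.056.

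Lfng encodes lunatic fringe, a Golgi enzyme that adds a sugar to Notch and so changes which ligands activate it, and which cycles in presomitic mesoderm. It had 20.3 and 15.1 CPM in Trim33-deficient libraries, against 55.2 and 29.4 CPM in Control libraries. Control replicate 1 was the highest, and both Trim33-deficient libraries were below the lower Control library. The Trim33-deficient mean of 17.7 ± 3.69 CPM was 41.9% of the Control mean of 42.3 ± 18.3 CPM (SD, n = 2 each). The log2 fold change was −1.26 (SE 0.36), with an unadjusted p of 0.0196 and an adjusted p of 0.577 by edgeR's quasi-likelihood test, and an adjusted p of 0.133 by DESeq2. It was −1.43 and −0.95 within the pairs, and without Control replicate 1 it was −0.73.

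Among the targets, Hes5 encodes a basic helix-loop-helix repressor typical of neural progenitors, and it had the lowest log2 fold change of the 10, −1.79 (SE 0.72, edgeR quasi-likelihood adjusted p = 0.650). It was counted 48 and 13 times in Trim33-deficient libraries, against 145 and 48 times in Control libraries. On the CPM scale these were 3.46 and 1.11 CPM in Trim33-deficient bodies, against 11.2 and 4.69 CPM in Control bodies. Both Trim33-deficient libraries were lower, and the replicates of each group lay 3.12-fold apart in Trim33-deficient and 2.39-fold apart in Control bodies. The 13 counts have an exact Poisson 95% interval of 6.92 to 22.2, which covers counting error only. Trim33-deficient replicate 1 and Control replicate 2, the nearest libraries of the groups, both had 48 counts, with an interval of 35.4 to 63.6. Only the library scaling parted them, at 3.46 and 4.69 CPM. The pairs gave −1.65 and −1.93, and leaving out each library gave −2.82 to −1.02. The lowest came without Trim33-deficient replicate 1 and the highest without Control replicate 1.

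Nrarp encodes an ankyrin-repeat protein that Notch switches on and that destabilises the Notch intracellular domain. It had 22.6 and 9.99 CPM in Trim33-deficient libraries, against 46.0 and 31.7 CPM in Control libraries, with no overlap. Its mean was 16.3 ± 8.90 CPM in Trim33-deficient bodies and 38.9 ± 10.1 CPM in Control bodies (SD, n = 2 each). The log2 fold change was −1.25 (SE 0.44), unadjusted p = 0.0396 and adjusted p = 0.627 by edgeR's quasi-likelihood test. With the replicate block, DESeq2 called it lower at −1.33 (adjusted p = 0.0333), as it did 0.778% of genes tested, with 0.533% called higher, while edgeR with the block did not (adjusted p = 0.239). It was the 1 member of the 10 that any fit called. The pairs gave −1.02 and −1.65, and leaving out each library gave −1.95 to −0.78, the lowest without Trim33-deficient replicate 1 and the highest without Trim33-deficient replicate 2.

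Hes1, the HES repressor most widely used as a Notch readout and also induced by other signals, had 67.1 and 51.7 CPM in Trim33-deficient libraries and 53.9 and 70.6 CPM in Control libraries. The groups overlapped, and the log2 fold change was −0.067 (SE 0.21), with 0.31 in the replicate 1 pair and −0.45 in the replicate 2 pair.

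Hey1 encodes a HEY repressor of developing vessels, heart and somites. It had 22.5 and 9.74 CPM in Trim33-deficient libraries and 21.5 and 17.6 CPM in Control libraries. Trim33-deficient replicate 2 was low and the other 3 libraries were close, and the log2 fold change of −0.27 (SE 0.44) turned to 0.21 without that library. Heyl, a HEY family repressor of smooth muscle, was the least abundant Notch gene in reads per length, with 30 to 44 counts in each library. It had 3.17 and 2.56 CPM in Trim33-deficient bodies and 3.32 and 3.32 CPM in Control bodies, a log2 fold change of −0.21 (SE 0.35, edgeR quasi-likelihood adjusted p = 0.871). The groups of Heyl did not overlap, but the gap was small against counting error. The 44 counts in Trim33-deficient replicate 1 have an exact Poisson 95% interval of 32.0 to 59.1, and the 34 in Control replicate 2 of 23.6 to 47.5.

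**Figure D2:**
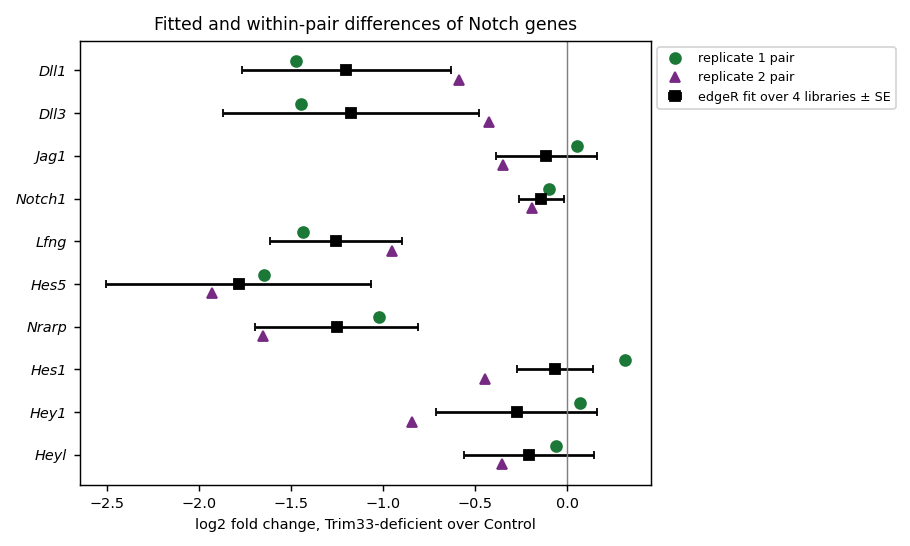
Log2 fold change of Trim33-deficient over Control for each Notch gene, with squares and bars for the edgeR fit over 4 libraries ± SE, circles for the replicate 1 pair and triangles for the replicate 2 pair. Lfng, Hes5 and Nrarp lie near −1 or lower in both pairs, Dll1 and Dll3 lie far lower in the replicate 1 pair, and Jag1, Hes1 and Hey1 lie on both sides of 0.

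The 10 genes thus held 5 with a log2 fold change from −1.79 to −1.17 (Dll1, Dll3, Lfng, Hes5 and Nrarp) and 5 from −0.27 to −0.067 (Jag1, Notch1, Hes1, Hey1 and Heyl). This division was made after the values were seen and was not tested. Within the first 5, the values of Lfng, Hes5 and Nrarp stayed at −0.73 or lower without any single library. Those of Dll1 and Dll3 without Control replicate 1 were −0.23 and 0.069. Counted without Control replicate 1, 6 of the 10 genes had both Trim33-deficient libraries below the other Control library, as did 34.1% of genes tested. Dll1 and Dll3 were not among them.

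**Figure D3:**
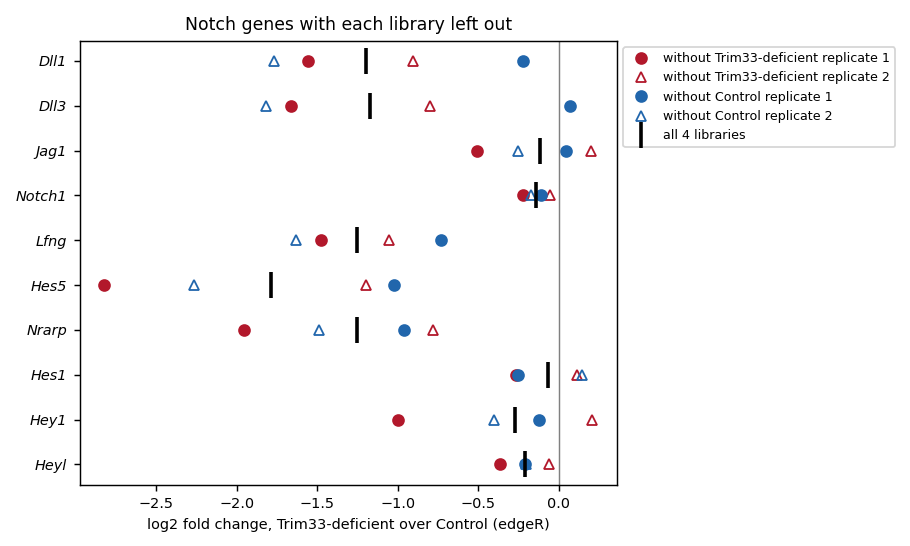
Log2 fold change of Trim33-deficient over Control from edgeR with each library left out in turn (red, Trim33-deficient library left out; blue, Control library left out; filled circles, replicate 1; open triangles, replicate 2), with a black bar for all 4 libraries. Without Control replicate 1, Dll1 and Dll3 sit at −0.23 and 0.069, while Lfng, Hes5 and Nrarp stay at −0.73 or lower in all these fits.

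Levels of different genes were compared as CPM per kilobase of the longest annotated transcript. Hes1 was the highest in both groups, at 40.4 ± 7.42 in Trim33-deficient and 42.4 ± 8.03 CPM per kilobase in Control bodies (SD, n = 2 each). In Trim33-deficient bodies the order of level went on with Jag1 at 13.8, Lfng at 7.69, Notch1 at 7.63, Hey1 at 6.65, Nrarp at 6.31, Dll1 at 4.65, Dll3 at 4.11, Hes5 at 1.80 and Heyl at 0.632 CPM per kilobase. From Lfng to Dll3 each gene's libraries overlapped those of the next, while Hes1, Jag1, Hes5 and Heyl were apart from their neighbours. In Control bodies Lfng stood second, at 18.4, before Nrarp at 15.0, Jag1 at 14.9, Dll1 at 10.7, Dll3 at 9.26, Notch1 at 8.41, Hey1 at 8.06, Hes5 at 6.24 and Heyl at 0.732 CPM per kilobase. There only Hes1, at the top, and Heyl, at the bottom, had libraries apart from those of their neighbours.

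The rest of the pathway was taken as 9 lists by role, with 54 genes, of which 49 were tested. The edgeR quasi-likelihood test called 0 of the 49 in either direction, and before adjustment 4 lower genes and 1 higher gene had p under 0.05, against 4.78% and 3.06% of genes tested. Their median log2 fold change was −0.072, with 28 below 0 and 21 above, and 23 to 31 were below 0 with each library left out in turn. Groups did not overlap for 7 lower and 4 higher genes of the 49, against 21.4% and 19.3% of genes tested.

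All 3 other receptors were below 0, though 2 of 3 without Control replicate 2 or without Trim33-deficient replicate 2, with Notch2 at −0.29 (SE 0.10, unadjusted p = 0.0441 and adjusted p = 0.630 by edgeR's quasi-likelihood test) and Notch3 at −0.14 (SE 0.12). Notch3 had 36.3 ± 2.33 CPM per kilobase in Trim33-deficient and 40.2 ± 2.79 CPM per kilobase in Control bodies (SD, n = 2 each), well above Notch1 at 7.63 and 8.41 in the same groups. Of 4 other ligands, Jag2 was at −0.62 (SE 0.33) and the non-canonical ligand gene Dlk1 at 0.45 (SE 0.38). Without Control replicate 1 Jag2 was at −0.16 and Dlk1 at 0.11, and without Trim33-deficient replicate 2 Jag2 was at −0.39 and Dlk1 at −0.019. Dll4, the ligand of sprouting vessels, had 6.20 and 2.56 CPM in Trim33-deficient libraries and 4.40 and 6.15 CPM in Control libraries, with overlap, and its log2 fold change of −0.26 turned to 0.24 without Trim33-deficient replicate 2 and to 0.0078 without Control replicate 2.

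Of the enzymes that put sugars on the receptor, Mfng, the manic fringe paralog of Lfng, had the lowest value. It had 9.30 and 5.38 CPM in Trim33-deficient libraries, against 26.0 and 11.8 CPM in Control libraries, with no overlap. Its log2 fold change was −1.36 (SE 0.50, unadjusted p = 0.0445 and adjusted p = 0.630 by edgeR's quasi-likelihood test), and without Control replicate 1 it was −0.69. Rfng, the remaining fringe gene, was at −0.26, and the glucosyltransferase gene Poglut1 was at 0.25.

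Of 9 genes for receptor-cleaving proteases and the further subunits of the gamma-secretase complex, 7 were above 0, and 6 of 9 with any single library left out. Adam10, which makes the ligand-induced cut, had 184 and 203 CPM in Trim33-deficient libraries, against 152 and 146 CPM in Control libraries, with no overlap. Its log2 fold change was 0.38 (SE 0.11, unadjusted p = 0.0200 and adjusted p = 0.577 by edgeR's quasi-likelihood test). Furin, which cuts the receptor before it reaches the surface, was at 0.62 (SE 0.29), and at 0.33 without Control replicate 1 and without Trim33-deficient replicate 2. Of the ubiquitin ligases that act on ligands, all 4 were below 0, and 2 to 4 with each library left out in turn, with Neurl1a at −0.59 (SE 0.22) and Mib2 at −0.15. Of turnover genes and inhibitors 4 of 8 were below 0. The Deltex-type genes were Dtx1 at 0.29, Dtx2 at −0.072, Dtx3 at −0.37 and Dtx4 at −0.92. Without Control replicate 1 the value of Dtx4 was −0.047.

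In the nucleus, Rbpj, the DNA-binding factor, had 35.7 and 41.8 CPM in Trim33-deficient bodies and 36.7 and 36.5 CPM in Control bodies, a log2 fold change of 0.082 (SE 0.15). The coactivator gene Maml1 was at 0.088 (SE 0.13). Rbpj turned to −0.033 without Trim33-deficient replicate 2 and Maml1 to −0.047 without Control replicate 1. On the full set of libraries the 9 genes of the list ran from −0.15 to 0.095, with 0 whose groups did not overlap. Of the other HES and HEY genes only Hes6, at −0.083, and Hey2, at −0.22, were tested. Hes6 turned to 0.41 without Control replicate 1 and 0.16 without Trim33-deficient replicate 2, and Hey2 to 0.74 without Control replicate 2. The segmentation clock gene Hes7 had 5 and 7 counts in Trim33-deficient and 7 and 5 counts in Control libraries.

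**Figure D4:**
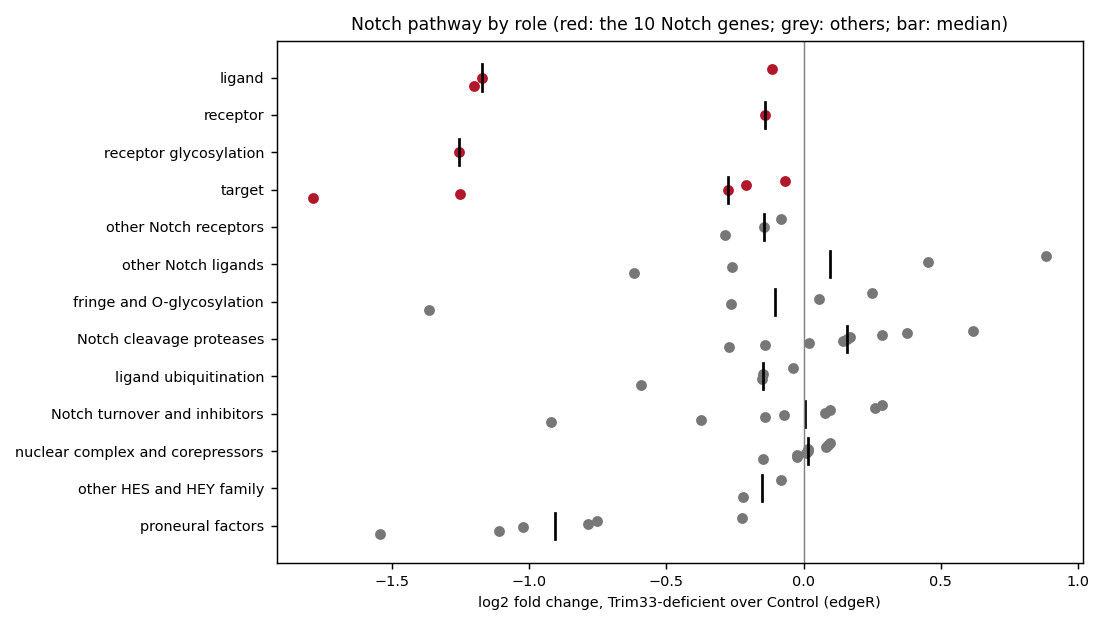
Log2 fold change of Trim33-deficient over Control (edgeR) for the 10 Notch genes in red and the 49 other tested pathway genes in grey, by role, with a bar at each list's median. The nuclear genes lie between −0.15 and 0.095, whereas 5 of the red points lie between −1.79 and −1.17 and the proneural median is −0.90, which was 0.47 without Control replicate 1.

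Proneural genes, which HES proteins repress and which drive Dll1 in progenitors, were below 0 for 6 of 6 tested, with a median of −0.90. Within both pairs 3 of the 6 were lower, against 29.8% of genes tested. Without Control replicate 1 the median turned to 0.47 and 1 of 6 was below 0. Their summed level was 37.9 and 23.1 CPM in Trim33-deficient libraries, against 105 and 29.1 CPM in Control libraries, so the groups overlapped. Neurog1 had 7.43 and 3.67 CPM in Trim33-deficient and 19.6 and 4.30 CPM in Control libraries, with overlap and Control replicate 1 far above the rest. Its log2 fold change was −1.11 (SE 0.80), and 0.37 without that library.

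Markers of the cell types that use these genes differed between libraries as follows. The 8 neural progenitor markers summed to 380 and 311 CPM in Trim33-deficient libraries, against 627 and 354 CPM in Control libraries, and all 8 were highest in Control replicate 1. Their median log2 fold change was −0.84, and 7 of 8 were lower within both pairs, against 29.8% of genes tested. Without Control replicate 1 that median was −0.21, and without Trim33-deficient replicates 1 and 2 in turn it was −1.42 and −0.48. Sox2 had 124 and 79.3 CPM in Trim33-deficient and 213 and 120.0 CPM in Control libraries, and Nes 144 and 166 CPM in Trim33-deficient and 195 and 126 CPM in Control libraries. The 7 neuron markers summed to 187 and 155 CPM in Trim33-deficient libraries and 385 and 86.8 CPM in Control libraries, again with all 7 highest in Control replicate 1. Their median of −0.46 turned to 0.66 without that library. Of the 10 Notch genes 7 were highest in Control replicate 1, as were 31.7% of genes tested. Heyl was among these 7 only by 3.323 against 3.320 CPM in Control replicate 2. All 10 were lowest in Trim33-deficient replicate 2, as were 28.9% of genes tested. The part of these markers in the Notch values was not tested.

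Presomitic mesoderm and somites, where Dll1, Dll3 and Lfng are best known, were followed with 10 markers, of which 6 passed the filter on low counts, 4 of them below 0. Msgn1 and Ripply2 were at 0 in all 4 libraries, Mesp2 had 0 to 8 counts, and Tbx6 had 6 and 7 counts in Trim33-deficient and 27 and 14 in Control libraries. Uncx had 37 and 24 counts in Trim33-deficient and 107 and 29 in Control libraries, and Meox1 19 and 6 in Trim33-deficient and 19 and 23 in Control libraries. Mesp1, which was not tested, had 7 and 2 counts in Trim33-deficient and 3 and 0 in Control libraries. Ripply1 and Tcf15 had log2 fold changes of 0.016 and −0.089, with overlap. Without Control replicate 1 these were −0.15 and 0.28. Groups did not overlap on the CPM scale for Tbx6, Uncx and Meox1, all lower, or for Foxc2, higher. Of genes tested, 21.4% were apart in the lower and 19.3% in the higher direction. The gap was narrow for Uncx (2.67 CPM in Trim33-deficient replicate 1, 2.83 in Control replicate 2). It was also narrow for Meox1 (1.37 CPM in Trim33-deficient replicate 1, 1.47 in Control replicate 1). Without Control replicate 1 the log2 fold changes of Tbx6, Uncx, Meox1 and Foxc2 were −1.41, −0.26, −1.23 and 0.25. The 10 markers summed to 28.1 and 26.5 CPM in Trim33-deficient libraries and 21.7 and 26.3 CPM in Control libraries, of which Foxc2 made up 19.5 and 20.3 CPM in Trim33-deficient and 5.56 and 16.7 CPM in Control libraries. The 8 endothelial markers summed to 342 and 364 CPM in Trim33-deficient and 258 and 536 CPM in Control libraries. The 7 visceral endoderm markers had 96.5 and 101 CPM in Trim33-deficient libraries, against 958 and 1115 CPM in Control libraries, and the 8 pluripotent cell markers 100 and 159 CPM in Trim33-deficient and 253 and 145 CPM in Control libraries. The 7 cardiomyocyte markers had 1073 and 276 CPM in Trim33-deficient and 126 and 401 CPM in Control libraries, and the 5 smooth muscle markers 2010 and 3082 CPM in Trim33-deficient and 656 and 1884 CPM in Control libraries. Their part in the Notch values was not tested either.

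**Figure D5:**
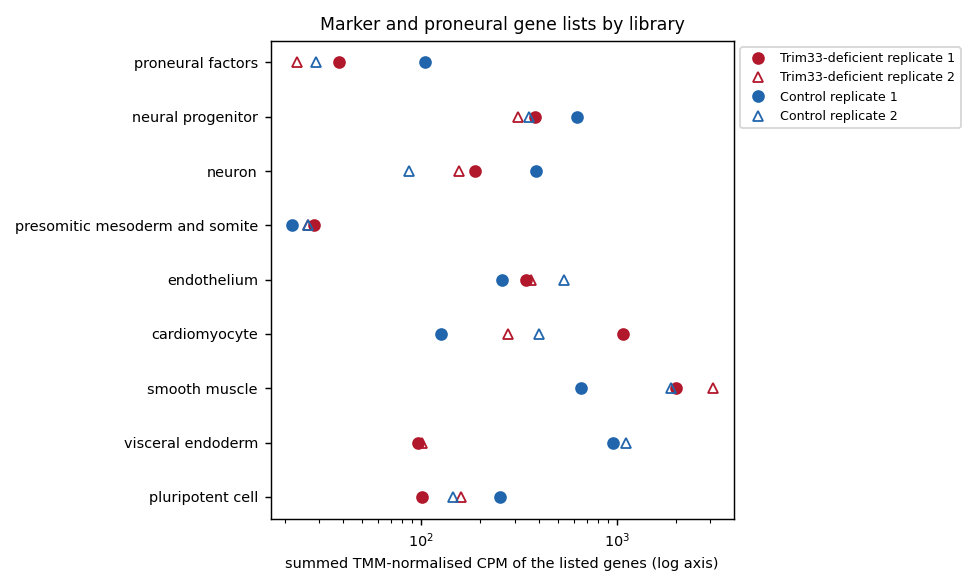
Summed TMM-normalised CPM (log axis) of the proneural genes and 8 marker lists in each library, with Trim33-deficient in red, Control in blue, filled circles for replicate 1 and open triangles for replicate 2. Control replicate 1 is the highest for proneural, neural progenitor, neuron and pluripotent cell lists, at 105, 627, 385 and 253 CPM.

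The authors' deposited table, which lists 84 genes up to an adjusted p of 0.0496, held 0 of the 10 Notch genes and 0 of the other pathway genes. It gave Trim33 a log2 fold change of −1.22.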

How the data were processed

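The count files hold raw counts per gene symbol, as deposited, and the submitters' processing notes name STAR, HTSeq and DESeq with the mouse build mm9, without versions or roles. Without a stated strand setting, overlapping genes and antisense partners can share reads. Rows that name no gene (55.5% to 56.0% of reads without a feature, at most 0.200% ambiguous) entered neither library sizes nor tests. The authors' deposited table gives a log2 fold change and an adjusted p-value per gene, per the file headers.

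Genes were filtered with filterByExpr, scaled by TMM and tested with edgeR 4.0.16 in R 4.3.3 (quasi-likelihood F-test, two-sided, Benjamini-Hochberg over 14259 genes, threshold 0.05), with 2 residual degrees of freedom and no block. Standard errors are the absolute log2 fold change over the square root of F. Within-pair log2 ratios used a prior count of 2. The fits set beside it used DESeq2 1.42.0, limma 3.58.1 voom, the likelihood ratio test of edgeR, 2 scalings, 2 filters, the replicate block and each library left out. The left-out library's group is then assumed to vary like the other. The labels speak of independent pairs, so numbers were taken as pairs. Deviations of same-numbered libraries from the group means correlated across genes (Pearson 0.236, Spearman 0.207). No library was a second copy of another, with a chi-square per degree of freedom between replicates of 24.3 for Trim33-deficient and 35.7 for Control libraries. Transcript lengths came from GENCODE M21 (GRCm38), promoters from RefSeq GRCm38.p6. Counts were simulated for Trim33-deficient against Control bodies over 14259 genes, with a spread set by expression level alone. Single genes had no extra spread of their own. There edgeR recovered 22% of 2-fold and 82% of 4-fold changes, from 50 genes each. In the real counts it called 1 of the 7 visceral endoderm markers, whose median log2 fold change was −4.30. The simulated shares therefore do not give its power on the real counts.

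The members and lists were chosen with earlier results of these data known. Named genes were the 10 members, Trim33, the 2 smallest p per pathway list averaging at least 1 CPM and the 2 most abundant of each marker list, not all of which are given. Rfng, Dll4, Dtx1, Dtx2, Hes7, Msgn1, Ripply1, Ripply2, Mesp1, Mesp2, Tbx6, Tcf15 and Meox1 were added after their values were seen.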

Additional observations from a re-analysis of the deposited data

How the results depend on the processing

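With 2 libraries a group, edgeR called 2 genes lower and 0 higher among all genes. DESeq2 called 115 lower and 26 higher, the likelihood ratio test 140 and 29, limma voom 0 lower, and edgeR with no filter on low counts 14 lower. With the replicate block edgeR called 2 lower, and DESeq2 called 111 lower and 76 higher. Over the left-out libraries edgeR called 0 to 66 lower and 0 to 25 higher. The cause was not tested. Of the 10 Notch genes, 0 were called in these fits, except 1, Nrarp, by DESeq2 with the replicate block. The block changed no other call among the 10. For Lfng the adjusted p was 0.0535 by DESeq2 with the block and 0.133 without it. By edgeR's quasi-likelihood test it was 0.232 with the block and 0.577 without it.

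All 10 Notch genes were below 0 with TMM, DESeq2-style scaling and library totals alone. Over the left-out libraries, 4 of the 10 turned direction. Dll3 ran from −1.82 to 0.069, Jag1 from −0.51 to 0.20, Hes1 from −0.26 to 0.14 and Hey1 from −0.997 to 0.21. The median of the 10 ran from −1.24 to −0.22. The count of Notch genes with Trim33-deficient libraries below Control libraries, for which, as for the median, leaving out libraries was an alternative chosen after seeing the data, ran from 5 to 10, the highest without Trim33-deficient replicate 1, when 36.6% of genes tested did so. Hes5 and Heyl did not pass the stricter filter of 5 CPM in 2 libraries. Depth limits Hes5 and Heyl most.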
